A study of Mus musculus with 24 samples.

Results

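Elongating RNA polymerase II (Pol II) was mapped in mouse macrophages before and after 45 min of lipopolysaccharide (LPS), a component of bacterial outer membranes that these cells sense. The data are the 4 deposited peak lists of chromatin immunoprecipitation sequencing (ChIP-seq) for Ser2P, the form of Pol II whose C-terminal repeats carry a phosphate on serine 2. The peaks of all 4 lists were taken, 61704 of the 756484 peaks in the 24 lists of the series. The cells were bone marrow-derived macrophages of the FVB/Hsd strain on day 7 of differentiation, infected with a retrovirus and selected with puromycin. Each vector carried either a scrambled hairpin (scrambled) or the hairpin sh1137 against Wdr82 (shWdr82), and each was left untreated (UT) or given LPS at 10 ng/ml. The groups are therefore scrambled UT, scrambled LPS, sh1137 UT and sh1137 LPS, with 1 library each. The sample titles give 45 min of LPS for these libraries, whereas the treatment text names 4 h alone, and the titles were followed. The lists of total Pol II, H3K36me3 and H3K4me1 used beside them have the same 4 groups. The H3K4me3 and H3K27ac lists had 4 h of LPS at 10 ng/ml, with the empty vector LMP as control in place of scrambled. Only 1 hairpin against Wdr82 was used, its knockdown is not measured by these files.

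Ser2P marks polymerase that has left the promoter. It is placed on the C-terminal repeats by elongation kinases and is usually densest over gene bodies and past their 3′ ends, where termination takes place. H3K36me3, trimethylation of histone H3 at lysine 36, is written by the methyltransferase SETD2, which rides on elongating Pol II, and it accumulates over transcribed genes. LPS sets off a fast wave of transcription in macrophages through Toll-like receptor 4, so the comparison asks where elongating Pol II was called with and without LPS, and whether H3K36me3 lay there at the same time. WDR82 is shared by SET1 complexes, which methylate histone H3 at promoters, and by a phosphatase complex with PNUTS, and the series title speaks of early termination.

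A Ser2P peak of an LPS list was called gained when it shared no base with any UT peak of the same vector, and an untreated peak was called lost when it shared no base with an LPS peak. The remaining peaks, with at least 1 bp shared, were called kept. Each group is a single library, so replicate error is unknown and differences were not tested. Every 95% interval (exact Clopper-Pearson for a share, Wald for a paired difference) covers counting error only. Read depth is unknown, so a gained peak is one that passed the peak caller's threshold in one list and not in the other, not one shown to be empty before. Peaks were located on mm9. The gene table at hand is on GRCm38, so no gene name or genic annotation was joined to a position, and macrophage marker genes were not checked. For the same reason no sequence is shown.

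At a 1 bp overlap of the full lists, the numbers of gained and lost Ser2P peaks were of like size in each vector. In scrambled cells 6566 of 14420 LPS peaks were gained, which is 45.5% (44.7 to 46.4), and 7815 of 15670 UT peaks were lost, which is 49.9% (49.1 to 50.7). In sh1137 cells 7779 of 14870 LPS peaks were gained, 52.3% (51.5 to 53.1), and 8546 of 16744 UT peaks were lost, 51.0% (50.3 to 51.8). At equal covered length of the lists, an alternative chosen after the data were seen, 27.5% were gained and 65.5% lost in sh1137 cells, and with scores of at least 100 in both lists 47.1% were gained and 34.4% lost, so the balance in these cells depends on the lists. The 1 bp shares are also the background for every count of gained or lost peaks that follows. For comparison, total Pol II lists of the same cells had 25.6% of their LPS peaks gained and 47.2% of their UT peaks lost in scrambled cells, and 32.4% and 45.8% in sh1137 cells. H3K36me3 lists had lower shares, with 8.17% gained and 14.6% lost in scrambled cells and 9.74% and 10.3% in sh1137 cells. The lists are unlike in size. H3K36me3 lists held 33445 to 38062 peaks over 221 to 239 Mb, and Ser2P lists 14420 to 16744 peaks over 43.0 to 60.6 Mb. Antibodies were not compared at like size, so these shares do not rank how much each changed with LPS.

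Few calls sat at the edge of the 1 bp rule. In scrambled cells 59 kept LPS peaks shared under 100 bp with an untreated peak and 88 gained peaks lay within 100 bp of one. In sh1137 cells these numbers were 57 and 87. The median gained peak lay 20958 bp from the nearest UT Ser2P peak in scrambled cells and 22546 bp in sh1137 cells, and 36.1% and 34.7% lay more than 50000 bp away. Lost peaks lay farther from the other list, with a median of 48243 bp to the nearest LPS peak in scrambled cells and 60114 bp in sh1137 cells. The LPS lists held fewer peaks, 14420 and 14870 against 15670 and 16744 in the UT lists, so the distances have unlike targets.

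**Figure D1:**
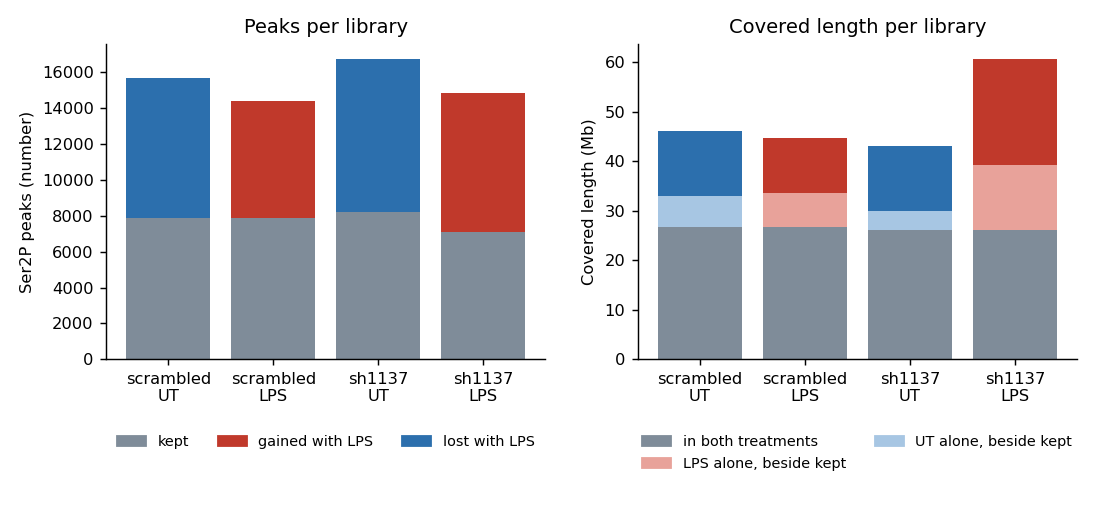
Ser2P peaks per library (left, number) and covered length per library (right, Mb), split into what both treatments share (grey), what lies beside kept peaks in 1 treatment (pale), and what lies in gained (red) or lost (blue) peaks. The numbers of peaks are between 14420 and 16744, while the covered length of the sh1137 LPS list, 60.6 Mb, exceeds the other lists at 43.0 to 46.0 Mb.

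Within each list, gained and lost peaks scored lower and were narrower than kept ones. The peak score is the authors' own value from the caller, which starts at 50 and piles up at 3100 for the strongest peaks, and it has no common scale between lists. The median gained peak had a score of 68.2 and a width of 1016 bp in scrambled cells, against 269 and 3052 bp for kept LPS peaks. In sh1137 cells it had a score of 91.9 and a width of 1643 bp, against 381 and 3880 bp. Lost peaks had a median score of 68.7 and a width of 1044 bp in scrambled cells and 65.6 and 878 bp in sh1137 cells. Of the peaks with a score of at least 100, 23.7% (1829 of 7723) were gained in scrambled cells and 38.3% (3570 of 9328) in sh1137 cells, when set against the full UT list. The same share of lost peaks was 25.5% (2143 of 8407) and 26.5% (2164 of 8172). A score of 100 need not mean the same enrichment in 2 lists, so these shares are not ranked between vectors. Gained peaks of at least 10000 bp numbered 72 in scrambled and 269 in sh1137 cells, and lost peaks of that width 50 and 65.

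The covered length parted the vectors. In scrambled cells it was 46.0 Mb untreated and 44.7 Mb with LPS, a difference of -2.88%, and in sh1137 cells 43.0 Mb and 60.6 Mb, a difference of 40.9%. The shared length was nearly the same, 26.8 Mb in scrambled and 26.2 Mb in sh1137 cells. Of the length called with LPS alone, 11.1 Mb lay in gained peaks and 6.86 Mb beside kept peaks in scrambled cells. In sh1137 cells these were 21.4 Mb and 13.0 Mb. Of the length called in untreated cells alone, 13.0 Mb lay in lost peaks in each vector, and 6.26 Mb and 3.79 Mb beside kept peaks in scrambled and sh1137 cells. The difference between vectors in the LPS effect was not tested, since it rests on the sh1137 LPS library, and its read depth cannot be told apart from the condition.

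Very wide Ser2P peaks were more numerous with LPS in both vectors. Peaks of at least 10000 bp numbered 508 untreated and 674 with LPS in scrambled cells, and 428 and 1149 in sh1137 cells. Those of at least 20000 bp numbered 25 and 106 in scrambled cells and 25 and 245 in sh1137 cells. The 10000 bp class held 14.6% of the covered length untreated and 23.1% with LPS in scrambled cells, and 13.3% and 31.7% in sh1137 cells. In scrambled cells this class was larger with LPS although the list was shorter and its covered length lower.

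Peaks that corresponded 1 to 1 between treatments had a median width ratio, LPS over UT, of 0.962 in scrambled and 1.14 in sh1137 cells. Their median widths were 3578 bp untreated and 3200 bp with LPS in scrambled cells, and 3141 and 3717 bp in sh1137 cells. The 4959 pairs of scrambled cells had a median log2 width ratio, LPS over UT, of -0.056 (quartiles -0.534 and 0.283), with a standard deviation (SD) of 0.045 over the medians of the 20 chromosomes. The 4775 pairs of sh1137 cells had a median of 0.194 (quartiles -0.144 and 0.709, SD over chromosomes 0.047). The LPS peak was wider in 44.7% (43.3 to 46.1) of scrambled pairs and in 65.6% (64.2 to 66.9) of sh1137 pairs. The chromosome median was above 0 on 4 chromosomes in scrambled cells and on 20 of 20 in sh1137 cells. At least 2-fold wider pairs numbered 341 and at least 2-fold narrower pairs 615 in scrambled cells, while sh1137 cells had 836 and 299. With scores of at least 100 the medians were -0.013 and 0.225, the former within the SD over chromosomes of 0.

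**Figure D2:**
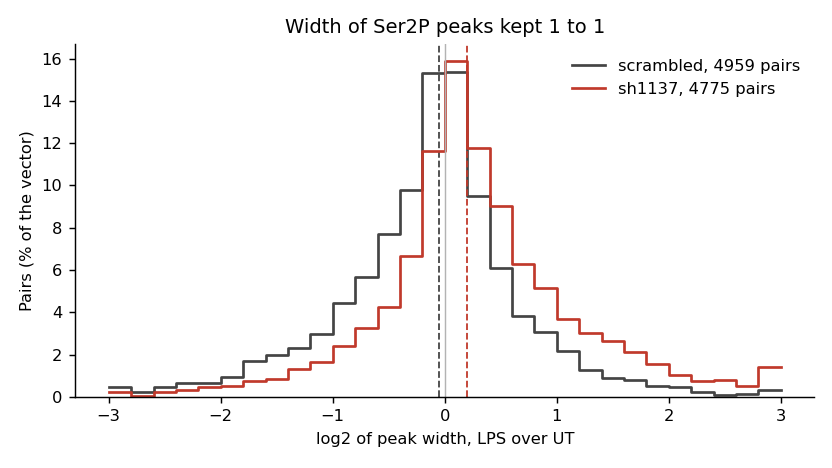
Distribution of the log2 ratio of peak width, LPS over UT, for Ser2P peaks kept 1 to 1, as percent of each vector's pairs in bins of 0.2, with values beyond 3 in either direction in the end bins. Dashed lines are the medians, -0.056 for scrambled (4959 pairs) and 0.194 for sh1137 (4775 pairs), and the sh1137 curve has the heavier right side.

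The width ratio depended on how wide the peak was. Pairs with a geometric mean width of 1000 to 2000 bp had a median log2 ratio of -0.245 in scrambled cells (1039 pairs) and 0.201 in sh1137 cells (994 pairs). Pairs above 10000 bp had 0.109 (236 pairs) and 0.412 (245 pairs), and 67.8% and 84.1% of them were wider with LPS. Kept peaks above 10000 bp were therefore mostly wider with LPS in both vectors, while the medians below 5000 bp had opposite signs. Joins and splits went the same way as the widths. In scrambled cells 669 LPS peaks each took in several UT peaks and 738 UT peaks were each split into several LPS peaks. In sh1137 cells the joins numbered 1130 and the splits 354.

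H3K36me3 was called at a minority of gained Ser2P peaks at 45 min of LPS. In scrambled cells 30.3% (29.2 to 31.5) of gained peaks overlapped an H3K36me3 peak of the scrambled LPS list, against 69.0% (68.0 to 70.1) of kept LPS peaks and 34.6% (33.6 to 35.7) of lost peaks. In sh1137 cells the shares were 27.8% (26.8 to 28.8) of gained, 67.9% (66.8 to 69.0) of kept and 33.2% (32.2 to 34.2) of lost peaks, with the H3K36me3 list of sh1137 LPS. Over peaks of all widths, gained and lost peaks thus lay close to each other in this share, and far below kept ones. The classes differed in width, with medians of 1643 bp for gained and 878 bp for lost peaks in sh1137 cells. Within the width classes from 1000 bp up, given below, gained peaks had lower shares than lost peaks in both vectors. Under 1000 bp they did not.

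Where H3K36me3 lay at gained Ser2P, it was mostly called in untreated cells too, as it was over the H3K36me3 lists as a whole. Of the 1992 gained peaks of scrambled cells with H3K36me3 at 45 min, 1837 also had it untreated, 92.2% (91.0 to 93.4). In sh1137 cells this held for 1954 of 2164, 90.3% (89.0 to 91.5). The shares were 96.5% and 95.2% at kept LPS peaks and 95.3% and 93.4% at lost peaks. Over all H3K36me3 peaks of the LPS lists, 8.17% and 9.74% had no untreated peak, so the shares at gained Ser2P are near this background. H3K36me3 appeared with LPS alone at 155 gained peaks in scrambled cells, 2.36% of all gained peaks, and at 210 in sh1137 cells, 2.70%. It was called in untreated cells alone at 250 and 163. The paired difference, LPS minus UT, was -1.45 points (-2.05 to -0.847) in scrambled and 0.604 points (0.118 to 1.09) in sh1137 cells. The numbers of H3K36me3 peaks differed in the same directions, 37166 UT and 33445 LPS in scrambled cells and 34042 and 38062 in sh1137 cells. The lists covered 239 and 221 Mb in scrambled cells, and 234 Mb in each treatment in sh1137 cells. With the same number of H3K36me3 peaks in each list the differences were -0.411 points (-1.01 to 0.186) and -0.566 points (-1.03 to -0.0985). At kept LPS peaks the difference was -3.62 points (-4.25 to -2.98) in scrambled and 0.353 points (-0.228 to 0.933) in sh1137 cells. At lost peaks it was -2.57 points (-3.10 to -2.04) in scrambled and -0.468 points (-0.933 to -0.00265) in sh1137 cells. The sign at lost peaks of sh1137 cells was thus opposite to the change in list length, whose part in these differences was not tested.

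**Figure D3:**
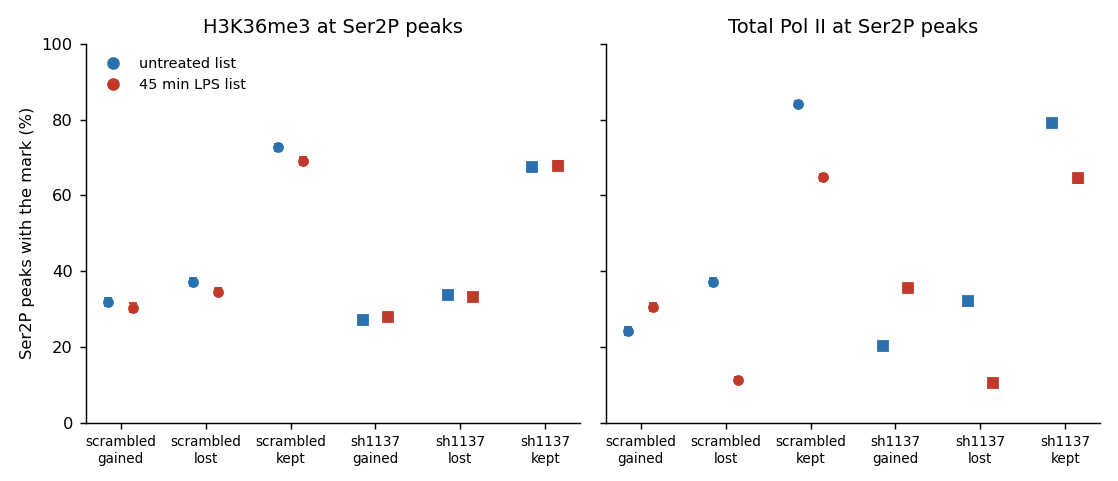
Percent of gained, lost and kept LPS Ser2P peaks that overlap an H3K36me3 peak (left) or a total Pol II peak (right) of the untreated (blue) or 45 min LPS (red) list of the same vector, with exact 95% binomial intervals, most of them smaller than the symbols (circles scrambled, squares sh1137). The H3K36me3 difference farthest from 0 is -3.62 points, at kept peaks of scrambled cells, whereas total Pol II is higher with LPS at gained peaks and lower at lost and kept peaks.

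Total Pol II, measured with another antibody in separate libraries, was called more often with LPS at gained Ser2P peaks and less often at lost ones. At gained peaks the share with a total Pol II peak was 24.2% untreated and 30.5% with LPS in scrambled cells, 6.24 points more (5.15 to 7.33). In sh1137 cells it was 20.2% and 35.5%, or 15.3 points more (14.2 to 16.4). At lost peaks it was 37.2% and 11.4% in scrambled cells, a difference of -25.7 points (-26.7 to -24.7), and 32.2% and 10.6% in sh1137 cells, a difference of -21.6 points (-22.6 to -20.7). Kept peaks also had less of it with LPS, with differences of -19.4 and -14.6 points. The total Pol II lists were shorter with LPS, 32385 and 21891 peaks in scrambled and 28497 and 22307 in sh1137 cells. They also covered less, 112 and 89.2 Mb in scrambled and 106 and 94.2 Mb in sh1137 cells. The part of the list lengths in these differences was not tested.

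Coverage in bases gave a like picture. In gained peaks total Pol II covered 28.5% of the bases untreated and 45.4% with LPS in scrambled cells, and 16.6% and 42.5% in sh1137 cells. Over the same bases H3K36me3 covered 34.3% and 33.6% in scrambled and 23.1% and 24.1% in sh1137 cells. The bases that LPS added beside kept peaks had total Pol II over 53.9% with LPS in scrambled and 50.1% in sh1137 cells. H3K36me3 lay over 47.3% and 41.3% of them at 45 min. The share of these added bases within H3K36me3 was thus below the 49.7% and 45.7% of the bases that both treatments shared.

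The H3K36me3 share of gained peaks was below that of kept peaks in each of 4 width classes. Among peaks of at least 5000 bp, H3K36me3 at 45 min was found at 58.4% (52.9 to 63.7) of the 334 gained, 78.1% (73.4 to 82.3) of the 352 lost and 89.1% (87.7 to 90.4) of the 2249 kept LPS peaks in scrambled cells. In sh1137 cells it was found at 38.8% (35.8 to 41.8) of the 1032 gained, 78.7% (74.2 to 82.8) of the 376 lost and 84.3% (82.8 to 85.6) of the 2719 kept peaks. Under 1000 bp the shares of gained, lost and kept peaks were 16.3%, 14.1% and 39.8% in scrambled cells and 16.0%, 15.9% and 35.5% in sh1137 cells. Between 1000 and 2000 bp, gained and lost peaks had 39.3% and 43.8% in scrambled and 28.6% and 47.2% in sh1137 cells. Between 2000 and 5000 bp they had 47.1% and 60.5% in scrambled and 32.4% and 59.8% in sh1137 cells. The gap between gained and lost peaks was widest at 5000 bp and above. Among gained peaks with a score of at least 100, H3K36me3 was found at 42.4% (40.1 to 44.7) in scrambled and 30.3% (28.8 to 31.9) in sh1137 cells, while lost peaks with such a score had 58.5% and 58.6%.

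**Figure D4:**
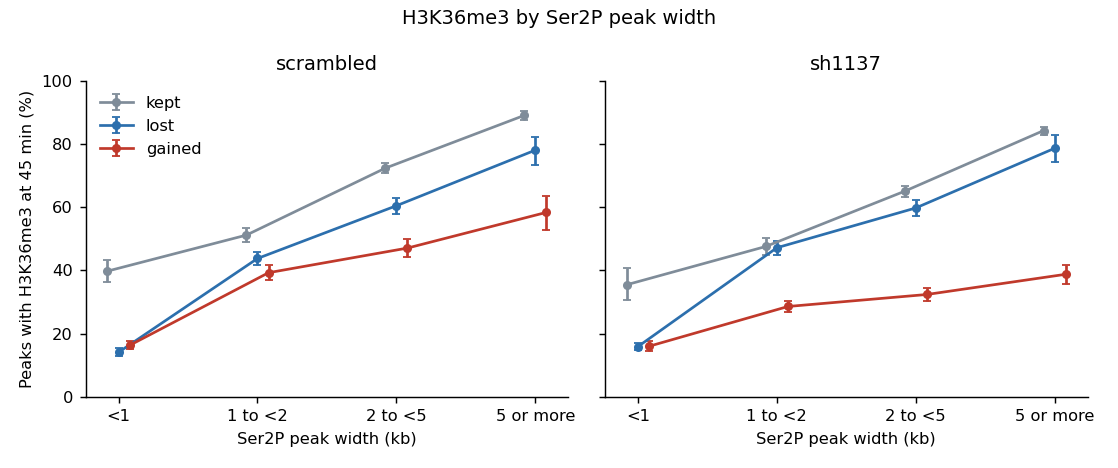
Percent of Ser2P peaks that overlap H3K36me3 at 45 min of LPS by Ser2P peak width in kb, for kept LPS, lost and gained peaks in scrambled (left) and sh1137 cells (right), with exact 95% binomial intervals. Gained peaks lie lowest at 1 kb and above in both vectors, and at 5 kb or more they reach 58.4% in scrambled and 38.8% in sh1137 cells.

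Nearness to Ser2P of the other treatment went with H3K36me3 at gained and at lost peaks. In scrambled cells 860 of the 1913 gained peaks within 5000 bp of an untreated Ser2P peak had H3K36me3 at 45 min, against 1132 of the 4653 farther away (24.3%). In sh1137 cells these were 855 of 2037 (42.0%) and 1309 of 5742 (22.8%). Lost peaks within 5000 bp of an LPS Ser2P peak had H3K36me3 at 45 min in 53.2% in scrambled and 56.8% in sh1137 cells. Those farther away had it in 30.0% and 27.6%. Of gained peaks without H3K36me3, 22.7% of 4574 in scrambled and 21.6% of 5615 in sh1137 cells lay within 5000 bp of an H3K36me3 peak, and 43.0% and 30.5% lay more than 50000 bp from any. For lost peaks without it these were 27.3% and 25.1% within 5000 bp, and 48.4% and 51.4% beyond 50000 bp.

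Of the promoter and enhancer marks at gained peaks, H3K4me3 hardly differed by treatment, while H3K4me1 and H3K27ac were called slightly more often with LPS. H3K4me3, the mark of active promoters, was found at 7.31% of gained peaks in scrambled cells without and 7.33% with LPS, and at 7.01% and 6.88% in sh1137 cells. H3K4me1, which marks enhancers and promoter flanks, was found at 20.8% and 21.9% in scrambled and 25.5% and 27.5% in sh1137 cells. H3K27ac, acetylation of active promoters and enhancers, was found at 14.5% and 17.4% in scrambled cells, 2.88 points more (2.22 to 3.54). In sh1137 cells it was found at 19.2% and 21.6%, 2.37 points more (1.65 to 3.08). By bases, H3K27ac covered 19.2% of gained peaks untreated and 25.7% with LPS in scrambled cells, and 20.8% and 25.5% in sh1137 cells. It covered 15.7% and 14.9% of the bases of lost peaks in scrambled cells, and 17.2% and 13.7% in sh1137 cells. At lost peaks the H3K27ac differences were -0.384 points (-0.889 to 0.121) and -1.83 points (-2.30 to -1.35). The H3K4me3 and H3K27ac libraries had 4 h of LPS and, for the control, the empty vector LMP, so these values are not from the same time or the same control vector as Ser2P. The H3K27ac lists had fewer peaks with LPS in both vectors, 32486 and 28986 for LMP and 31677 and 28462 for sh1137. They covered 98.4 Mb untreated and 115 Mb with LPS for LMP, and 106 and 104 Mb for sh1137, and the part of this in the H3K27ac differences was not tested.

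The 4 Ser2P lists merged into 30111 regions, and the regions that followed LPS in both vectors were the largest groups held by exactly 2 libraries. Both LPS libraries and neither UT library held 1302 regions, 4.32% of all, called gained in both. The reverse, lost in both, counted 1509 regions, 5.01%. The scrambled libraries alone shared 391 regions (1.30%) and the sh1137 libraries alone 432 (1.43%). The patterns that follow no factor of the design held 255 regions, 0.847% (scrambled UT with sh1137 LPS), and 151 regions, 0.501% (scrambled LPS with sh1137 UT). Regions missing from 1 library alone made up 2.28% (sh1137 LPS), 1.53% (scrambled LPS), 1.37% (sh1137 UT) and 1.35% (scrambled UT). Losses in 1 vector alone were 5011 regions (16.6%) in scrambled and 5399 (17.9%) in sh1137 cells. All 4 libraries held 4878 regions, 16.2%. The number gained in both was 566 when regions were joined over gaps of up to 5000 bp and 564 at equal covered length, where the crossed patterns held 22 and 338.

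**Figure D5:**
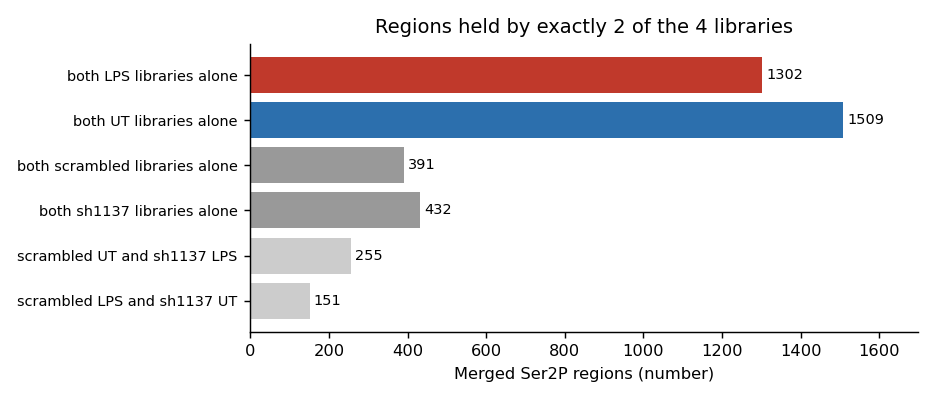
Number of merged Ser2P regions held by exactly 2 of the 4 libraries. The 1302 regions of both LPS libraries and the 1509 of both untreated libraries exceed the 391 and 432 regions shared within a vector and the 255 and 151 of the crossed pairs.

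Most gained peaks of a vector were nevertheless not gained in the other. Of the 6566 gained in scrambled cells, 32.3% overlapped Ser2P of the sh1137 LPS list alone, 10.7% overlapped both sh1137 lists and 54.0% neither. Of the 7779 gained in sh1137 cells, 20.8% overlapped the scrambled LPS list alone, 7.42% both scrambled lists and 67.7% neither. Stronger gained peaks overlapped Ser2P of the other vector more often, in its LPS list alone and also in both its lists. With a score of at least 100, 56.5% of 1829 scrambled gained peaks were in the sh1137 LPS list alone, 20.6% in both sh1137 lists and 19.6% in neither. Of the 3570 such peaks in sh1137 cells, 30.8% were in the scrambled LPS list alone, 10.1% in both scrambled lists and 55.9% in neither. Whether these shares differ between the vectors was not tested, and the scrambled LPS list covers less of the genome than the sh1137 LPS list.

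The regions gained in both vectors were wider than those gained in 1 vector and carried more of the other marks. Their median width was 3414 bp, against 678 bp for the 3548 regions (11.8%) gained in scrambled alone and 1432 bp for the 5266 regions (17.5%) gained in sh1137 alone. Widths and mark shares are not independent of this grouping, since a merged region spans the peaks of every list that holds it. H3K36me3 was also called more often at wider peaks, and shares at equal width were not compared between these groups. The numbers gained in 1 vector alone depended on the lists. With scores of at least 100 they were 703 in scrambled and 2759 in sh1137 cells, and at equal covered length 3145 and 863, which turns their order. H3K36me3 at 45 min overlapped 38.8% (36.1 to 41.5) of regions gained in both in scrambled and 42.7% (40.0 to 45.4) in sh1137 cells. At regions lost in both it overlapped 60.2% (57.7 to 62.7) and 60.7% (58.2 to 63.2). Of the regions gained in both, 406 had H3K36me3 in all 4 libraries and 675, or 51.8%, in none. At regions gained in sh1137 alone it overlapped 19.4% (18.4 to 20.5) in sh1137 LPS cells, close to the 18.6% of regions lost in sh1137 alone, and 77.9% of the former had H3K36me3 in no library.

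At the regions shared by both vectors, total Pol II was called more often where Ser2P was. At regions gained in both it was called at 31.5% untreated and 51.6% with LPS in scrambled cells, and at 28.5% and 58.4% in sh1137 cells. Both LPS libraries and neither UT library of total Pol II held 253 of these regions, against 27 for the reverse. At regions lost in both the shares were 71.6% and 15.3% in scrambled and 66.4% and 15.4% in sh1137 cells, with 654 regions held by both UT libraries alone and 3 by both LPS libraries alone. At regions gained in sh1137 alone total Pol II was called at 12.7% untreated and 27.4% with LPS in sh1137 cells. In scrambled cells, where these regions had no Ser2P peak, it was called at 13.3% and 16.7%. H3K27ac, at 4 h of LPS and with LMP as control vector, appeared in both LPS libraries alone at 96 of the 1302 regions gained in both. It did so at 273 of the 5266 gained in sh1137 alone. Both UT libraries alone held 30 and 92. At the 3548 regions gained in scrambled alone the LPS and UT counts were 65 and 30. They were 33 and 61 at the 1509 lost in both, and 141 and 191 at the 4878 with Ser2P in all 4 libraries.

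H3K36me3 appeared together with Ser2P at few regions. Among the 1302 regions gained in both vectors, 13 had H3K36me3 in both LPS libraries and in neither UT library, and 6 had the reverse. The same counts were 12 and 6 at the 3548 regions gained in scrambled alone and 16 and 20 at the 5266 gained in sh1137 alone. They were 4 and 10 at the 1509 lost in both, and 11 and 24 at the 4878 with Ser2P in all 4 libraries. The widest of the 13, chosen after the values were seen, was on chromosome 2 from 164884474 to 164907470, 22997 bp wide. It had Ser2P scores of 3100 in both LPS libraries, and H3K36me3 covered 28.4% of it in scrambled and 39.6% in sh1137 LPS cells. Total Pol II covered 84.8% and 99.2% of it with LPS and 0% untreated. Next came the region on chromosome 9 from 110946181 to 110963375, where H3K36me3 covered 24.7% and 28.1% with LPS, and total Pol II 71.4% and 89.3% with LPS against 5.77% and 16.8% untreated. Narrower cases with Ser2P at 3100 in both LPS lists were on chromosome 4 from 11636031 to 11645438, with H3K36me3 over 38.3% and 58.8%, and on chromosome 16 from 55826857 to 55833910, with 49.8% and 71.2%. These 4 are the ones with a score of 3100 in both LPS lists, and the other 9 were mixed. On chromosome 3 from 115667305 to 115671174 H3K36me3 covered 100% in both LPS libraries. On chromosome 11 from 54766000 to 54773994 total Pol II covered 49.5% and 67.7% untreated and 0% with LPS, and on chromosome 9 from 44534753 to 44537596 and chromosome 6 from 149291513 to 149292835 it was called in no library.

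The 10 highest-ranked regions gained in both all had the score 3100 in both LPS lists and were ordered by width. The first, on chromosome 5 from 91283930 to 91333800, was 49871 bp wide and had no H3K36me3 peak in any library. Ser2P covered 20.1% of it in scrambled LPS and 100% in sh1137 LPS cells. Total Pol II covered 14.6% untreated and 40.4% with LPS in scrambled cells, and 17.4% and 98.4% in sh1137 cells. On chromosome 13 from 43876063 to 43914655, Ser2P covered 79.9% and 100% with LPS, and H3K36me3 was 15.3% untreated and 41.3% with LPS in scrambled and 37.3% and 47.4% in sh1137 cells.

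Among the 10 regions, the distance to the nearest Ser2P peak of scrambled UT cells ran from 1705 bp to 596939 bp. The farthest was the region on chromosome 10 from 18704830 to 18732443. Ser2P covered 82.1% of it in scrambled and 100% in sh1137 LPS cells, and total Pol II went from 15.3% to 86.7% and from 13.2% to 81.6%. H3K36me3 was already called there untreated, over 42.3% and 42.0%, and covered 44.5% and 43.7% with LPS. The region on chromosome 14 from 103445206 to 103461949 had total Pol II over 94.9% and 100% with LPS and 0% untreated, and H3K36me3 in the sh1137 LPS list alone, over 20.8%. A region on chromosome 16 from 84719804 to 84736689 had H3K36me3 over 86.9% untreated and 86.7% with LPS in scrambled cells, so the Ser2P peak lay on a stretch where the mark was also called untreated. Of the 10 regions, 5 had H3K36me3 in all 4 libraries, 2 in both LPS libraries alone and 1 in none. H3K27ac, at 4 h of LPS and with LMP as control vector, was in all 4 libraries at 7 of them. Over all 1302 regions gained in both, 31.2% had H3K36me3 in all 4 libraries and 51.8% in none. H3K27ac was in all 4 libraries at 22.3% of the 1302.

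At the highest-ranked lost regions total Pol II was mostly called in untreated cells alone, and H3K36me3 in all libraries. Of the 10 first regions lost in both, 9 had H3K36me3 in all 4 libraries and 7 had total Pol II in both UT libraries alone. Over all 1509 regions lost in both, 794 (52.6%) had H3K36me3 in all 4 libraries and 31.1% in none, and 654 had total Pol II in both UT libraries alone. The region on chromosome 9 from 55974685 to 55985787, with UT scores of 3165 and 2859, had H3K36me3 over 96.7% untreated and 93.5% with LPS in scrambled cells and 100% and 95.6% in sh1137 cells. Total Pol II covered 93.4% and 82.0% of it untreated and 0% with LPS. On chromosome 11 from 78103906 to 78110460, total Pol II covered 100% and 90.9% untreated and 0% with LPS, and H3K36me3 73.8% untreated and 88.1% with LPS in scrambled cells. The first-ranked region, on chromosome 17 from 48492329 to 48509649, kept total Pol II over 7.15% and 6.54% with LPS, from 82.2% and 98.0% untreated.

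The 5 first regions gained in sh1137 alone had no H3K36me3 peak in any library, as had 77.9% of all 5266 such regions. They were 22985 to 24388 bp wide with a Ser2P score of 3100 in the sh1137 LPS list. The first, on chromosome 5 from 99761981 to 99786368, lay 112554 bp from scrambled UT Ser2P, and total Pol II covered 100% of it in sh1137 LPS cells, 37.3% in scrambled LPS cells and 0% untreated. On chromosome 11 from 117782192 to 117805387 these were 82.3%, 14.2% and 0%. On chromosome 16 from 84549936 to 84573244, total Pol II was called in sh1137 LPS cells alone, over 98.0%. The region on chromosome 2 from 90421071 to 90444055 had no total Pol II peak with LPS in either vector, although the Ser2P peak was at the ceiling. The first region gained in scrambled alone, on chromosome 11 from 117823298 to 117829448, had a score of 3100, was 6151 bp wide and had total Pol II over 100% of it in both LPS libraries. Its H3K36me3 was 0% untreated and 49.9% with LPS in scrambled cells, and 49.2% and 52.3% in sh1137 cells.

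Gained regions that lay within 10000 bp of each other formed long stretches, and the 10 with the most gained bases were all covered further in sh1137 LPS than in scrambled LPS cells, at least 2-fold further in 7. Regions gained in both or in either vector entered this joining, and the ranking by gained bases favours the list that covers more. The stretch on chromosome 2 from 128082375 to 128194936 spanned 112562 bp. Ser2P covered 14312 bp of it in scrambled and 85816 bp in sh1137 LPS cells, and no Ser2P peak lay within it in either UT library. Total Pol II covered 17.4% and 54.7% with LPS, against 1.13% and 0.722% untreated. On chromosome 16 from 84540195 to 84651614, 18 gained regions covered 7890 bp in scrambled and 91864 bp in sh1137 LPS cells, with no H3K36me3 in any library. Total Pol II there covered 24.2% and 62.4% with LPS and 2.63% and 3.06% untreated.

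The gap between vectors was smaller in the other 3 stretches. On chromosome 5 from 20707877 to 20824647, Ser2P covered 67503 bp in scrambled and 69894 bp in sh1137 LPS cells, and total Pol II 61.2% and 64.5% with LPS against 5.18% and 8.85% untreated. H3K36me3 lay over 65.7% of it untreated and 47.0% with LPS in scrambled cells and 64.7% and 62.5% in sh1137 cells. On chromosome 1 from 80600784 to 80681582, Ser2P covered 46477 bp and 70641 bp, and total Pol II 98.1% and 98.4% with LPS against 25.4% and 24.4% untreated. H3K36me3 covered more of this stretch with LPS in both vectors, 55.9% untreated and 73.3% with LPS in scrambled cells and 58.6% and 74.4% in sh1137 cells. On chromosome 14 from 103381938 to 103463336, Ser2P covered 48109 bp and 72223 bp, and H3K36me3 was called in sh1137 LPS cells alone, over 4.28%.

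Gains and losses were spread over the chromosomes. The share of LPS peaks gained ran from 36.0% on chromosome 7 to 57.0% on the X chromosome in scrambled cells, and from 42.2% on chromosome 19 to 59.5% on chromosome 6 in sh1137 cells. The share of UT peaks lost was highest on the X chromosome in both vectors, 63.7% and 63.3%. H3K36me3 was found at 39.8% of gained peaks on chromosome 7 in scrambled and 34.2% in sh1137 cells, the highest of the 20 chromosomes in each. In sh1137 cells chromosome 5 had the same rounded share, 34.2%.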

How the data were processed

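The values are peak lists, 1 per library, with 1 library in each group. The submitters' processing notes list Bowtie 0.12.7, MACS 1.4 and the mm9 build. The deposited score of a peak (unit score, lowest 50, with many of the strongest peaks at 3100) comes from the caller, and the deposited start and end positions, other values of the same call, give the widths. Read depth, input and duplicate handling were not given in the sources used here, and no depth correction was made and values of different lists share no scale. Overlap, distance and coverage were computed with Python 3.11.15, numpy 2.4.6 and scipy 1.17.1, and the code was tested on simulated data with known gained, lost and kept peaks. For merged regions, the peaks of the 4 Ser2P lists were joined where they shared a base. Named regions are the first 10 gained or lost in both vectors and the first 5 gained in 1 vector, by the lower score, then width, then position, and the 10 stretches with the most gained bases joined over gaps of up to 10000 bp. Some of them are described. The regions and comparisons were chosen with earlier results of these data known. Alternatives were a score of at least 100, 50% overlap, a 5000 bp reach, equal numbers of peaks, and, added after the data were seen, equal covered length.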

Additional observations from a re-analysis of the deposited data

Results flagged for a closer look

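The LPS effect had opposite signs in the scrambled and the sh1137 libraries in 4 measures, and none of these differences was tested, since each vector has 1 library per treatment. The covered length of Ser2P differed by -2.88% in scrambled and 40.9% in sh1137 cells. The median log2 width ratio of kept peaks was -0.056 and 0.194. The share of gained peaks with H3K36me3 differed by -1.45 and 0.604 points, and that of kept LPS peaks by -3.62 and 0.353 points. The numbers of peaks in the H3K36me3 lists differed in the same directions as these shares. At lost peaks the share differed by -2.57 and -0.468 points, although the sh1137 H3K36me3 list was longer with LPS. With equal numbers of H3K36me3 peaks both differences at gained peaks were negative (-0.411 and -0.566 points).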

How the results depend on the processing

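Depth is unknown and limits every count of gained or lost peaks. The percent gained in scrambled cells (45.5) was 31.3 with scores of at least 100 in both lists, 51.4 when 50% of the peak had to be covered, 32.3 when a peak within 5000 bp counted as shared and 41.8 at equal covered length. The percent lost there (49.9) was 35.9, 56.7, 39.9 and 42.5 in this order, and 46.6 with equal numbers of peaks. In sh1137 cells the percent gained (52.3) was 47.1, 61.6, 38.6 and 27.5, and the percent lost (51.0) was 34.4, 55.2, 41.3 and 65.5, and 45.8 with equal numbers. At equal covered length the sh1137 LPS list keeps 6134 of its 14870 peaks, since its peaks are wider. H3K36me3 at gained peaks (30.3% and 27.8% in scrambled and sh1137 cells) was 26.0% and 22.9% when 50% of the peak had to be covered, 28.5% and 25.9% with H3K36me3 scores of at least 100, 42.4% and 30.3% for gained peaks with such scores, and 24.3% and 22.8% beyond 5000 bp of untreated Ser2P. With equal numbers of H3K36me3 peaks, its LPS minus UT difference at gained peaks moved from -1.45 to -0.411 points in scrambled cells and turned from 0.604 to -0.566 points in sh1137 cells. The 1302 regions gained in both vectors numbered 566 when regions were joined over gaps of up to 5000 bp and 564 at equal covered length, where those lost in both numbered 1813 and the crossed patterns 22 and 338. The median log2 width ratio of scrambled pairs was -0.013 with scores of at least 100. It and the other alternative values, 14 in all, stayed on the side of the main value, within its interval, its spread over chromosomes or 1.5 times its count. No paired analysis was possible because each group has 1 library.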
